A study of Mus musculus with 6 samples.

Results

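The mitochondrial ribosomal proteins were taken as the protein-coding genes of the deposited table whose symbols begin with Mrpl (large subunit) or Mrps (small subunit) followed by a digit. The rule found 78 genes, 49 of the large and 29 of the small subunit, among 54532 genes in the table, of which 22046 are protein-coding. Another 5 genes with such names are annotated as pseudogenes and were not members. RNA was measured in bulk liver of mice in 6 libraries. The HKO group (3 libraries) was from mice lacking G3bp1, a core protein of stress granules, in hepatocytes, and the Flox group (3 libraries) was from litter controls. All mice received a high-fat diet for 12 weeks, starting at 6 weeks of age, and no group on another diet was analysed here. The deletion is limited to hepatocytes, so the other cells of the HKO livers keep the gene. Neither the Cre line nor the deleted exons are given in the sources used here. Whether every library stands for a separate mouse is not stated in the labels, so a p-value reflects the spread over these samples only, and that spread may be technical.

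The mitochondrial ribosome translates the few messages encoded by mitochondrial DNA, all of them for subunits of the respiratory chain and ATP synthase. Its RNA is made inside the organelle, while its proteins are encoded in the nucleus, translated in the cytosol and imported. Liver is rich in mitochondria, and hepatocytes depend on them for fatty acid oxidation, ketone body synthesis and the urea cycle.

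The targeted gene was checked against the labels. G3bp1 was at 8.46, 8.46 and 9.10 FPKM in Flox 1, 2 and 3 and at 4.66, 4.27 and 4.44 FPKM in HKO 1, 2 and 3. FPKM is a read count divided by the length of the gene and by a library size. The groups did not overlap, and the difference was -0.83 on the log2(FPKM + 1) scale (SE 0.0879, limma adjusted p = 0.11), which did not pass the threshold of 0.05. The libraries held 15804115 to 17954066 reads. Summed levels of 8 hepatocyte markers spanned 48900 to 51000 FPKM in Flox and 42600 to 52200 FPKM in HKO, so the labelled tissue carried its defining markers. Of these 8, 6 had a lower mean in HKO, with a median difference of -0.09, and their part in the members' difference was not tested. All 11 markers of Kupffer cells, the resident liver macrophages, had higher HKO means (median difference 0.70), with summed levels of 148 to 271 FPKM in Flox and 222 to 362 FPKM in HKO. The 5 erythroid markers all had a lower mean (295 to 333 FPKM against 136 to 270 FPKM). Higher means were also found in 3 of 3 tested markers of monocyte-derived macrophages (9 markers summed, 62.9 to 75.1 FPKM against 80.3 to 98.2 FPKM), 6 of 8 of sinusoidal endothelium, 4 of 8 of stellate cells, 3 of 4 of bile duct, 2 of 2 of T and NK cells and 3 of 3 of B cells. They were found in 0 of 2 neutrophil markers (Ly6g at 0) and 0 of 1 adipocyte marker (Adipoq at 0), and no marker of any list passed the adjusted test in limma. In bulk liver, fewer cells of a type and less RNA per cell cannot be told apart.

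Of the 78 members, 77 passed the filter of at least 0.5 FPKM in at least 3 libraries, 48 of the large and 29 of the small subunit. The remaining member, Mrpl53 (chr6:83109040-83109939, plus strand, GRCm38), was listed at 0 reads in all 6 libraries, which allows up to 3 reads in each for counting error only. On the genome, 88.0% of its exonic bases are shared with exons of Gm42688, a protein-coding gene model on the same strand, and whether its reads were lost through that overlap was not tested. Gm42688 itself held 13, 10 and 7 reads in Flox and 5, 6 and 8 reads in HKO. Tested members held between 92 and 1373 reads per library, with a median of 513.

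Levels per length differed widely between proteins that sit in a fixed ratio in the assembled ribosome. Large subunit genes ranged from 2.18 to 66.2 FPKM in mean level (median 15), and small subunit genes from 1.87 to 40.3 FPKM (median 8.12), against a median of 3.91 FPKM over all 11856 genes tested. The highest large subunit genes were Mrpl34, Mrpl14 and Mrpl27. Mrpl34, the counterpart of the bacterial protein L34, was at 76.6, 69.6 and 49.1 FPKM in Flox and at 66.2, 68.1 and 67.8 FPKM in HKO. The Flox values enclosed all HKO values, with means of 65.1 ± 14.3 FPKM in Flox and 67.4 ± 1.01 FPKM in HKO (SD, n = 3 each). Mrpl14 was at 70.0, 69.9 and 52.2 FPKM in Flox and at 67.7, 45.6 and 48.7 FPKM in HKO, and Mrpl27 was at 56.9, 56.5 and 41.0 FPKM and at 50.1, 38.6 and 36.8 FPKM. In both genes HKO 1 stood above Flox 3, and over the 6 libraries the values of these 3 neighbours in level overlap.

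The lowest large subunit genes were Mrpl19, Mrpl33 and Mrpl47. Mrpl19 was at 2.16, 2.32 and 2.04 FPKM in Flox and at 2.05, 2.32 and 2.20 FPKM in HKO, and 36.0% of its exonic bases overlap Gcfc2 on the other strand. Mrpl33 was at 3.37, 2.64 and 1.59 FPKM in Flox and at 2.39, 2.59 and 2.53 FPKM in HKO. Mrpl47 was at 2.97, 2.04 and 3.04 FPKM in Flox and at 3.07, 2.39 and 2.84 FPKM in HKO. All 3 groups of values overlap between genotypes and between these genes. In the small subunit, Mrps21, Mrps24 and Mrps12 were highest. Mrps21 was at 48.1, 52.3 and 33.7 FPKM in Flox and at 47.0, 29.3 and 31.5 FPKM in HKO. Mrps24 was at 45.3, 45.1 and 35.3 FPKM and at 43.3, 33.6 and 36.3 FPKM. Mrps12, the counterpart of the bacterial decoding protein S12, was at 37.9, 44.3 and 29.7 FPKM and at 43.1, 35.7 and 32.8 FPKM. The next 2 small subunit genes, Mrps7 and Mrps28, had means of 33.5 and 33.3 FPKM, and then came a gap down to Mrps15 at 14.0 FPKM. These 3 genes were named after their values were seen. The lowest was Mrps25, at 2.10, 2.05 and 1.85 FPKM in Flox and at 2.01, 1.65 and 1.59 FPKM in HKO. Of its exonic bases, 69.8% overlap Nr2c2 on the other strand, and without strand in the library kit, the reads of the 2 genes cannot be told apart.

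**Figure D1:**
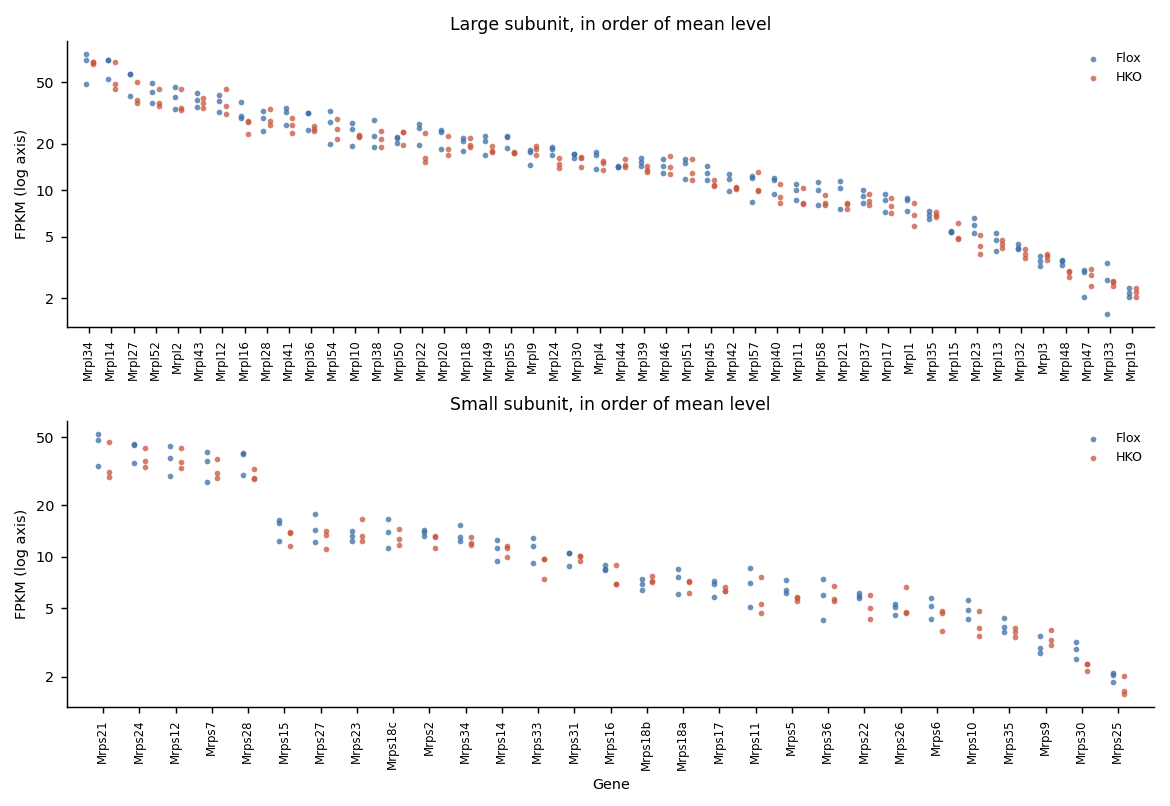
Level of each tested gene in FPKM (log axis) in 3 Flox libraries (blue) and 3 HKO libraries (red), in order of mean level, large subunit above and small subunit below. Gene means over all libraries span 2.18 to 66.2 FPKM in the large and 1.87 to 40.3 FPKM in the small subunit. The genotypes overlap in most genes.

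Level followed the length of the gene model. Across the 77 tested members, Spearman's rho between level and gene length was -0.83 (-0.90 in the large and -0.75 in the small subunit), and it was -0.17 across all genes tested. These are correlations across genes of the same 6 libraries, given as a description. FPKM divides by that length, which adds up all annotated exons of a gene, so a gene model with long rare exons is given a lower value for the same number of reads. Median gene length was 2390 bases in the large subunit, 2170 bases in the small subunit and 3760 bases over all genes tested.

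The promoters of these genes were also described, and no motif searched was in most of their windows. RefSeq (GRCm38.p6) windows from 250 bases before to 50 bases after the start were found for 69 of the 78 members. There were 75 windows in all, so some genes, such as Mrpl2 and Mrpl48, count more than once. Motifs known from nuclear genes of mitochondrial proteins or as general promoter elements were searched on both strands. CCGGAAG, the core bound by ETS factors such as GABPA, was in 26 windows (34.7%), against 17.9% of 10548 windows of tested protein-coding genes. AAGATGGC, the motif of YY1, was in 12 windows (16%) against 4.65%, and it overlapped CCGGAAG in 0 member windows. The palindrome of NRF1, spelled by the capitals of Mrpl9 in the lines that follow, was in 3 windows (4%) against 2.15%. CCAAT was in 40% against 37.7%, CACGTG in 9.33% against 10.2% and TATAAA in 6.67% against 7.38%. The motif of ZFP143, spelled by the capitals of Mrpl24 with a pair of free letters in its middle, was in 4 windows (5.33%) against 2.28%. It was searched only after it had been seen in member sequences. Over all 32851 windows, CCGGAAG was in 8.86%, AAGATGGC in 2.75%, the NRF1 palindrome in 0.971%, CACGTG in 7.15%, CCAAT in 37.4%, TATAAA in 13.6% and the ZFP143 motif in 1.03%. A match is a description of letters, not a bound site.

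The following stretches show these letters in members described in the text. Each is the part of the 250 bases before the RefSeq start that holds no annotated exon, 5′ to 3′ on the strand of the gene, and capitals mark CCGGAAG, the NRF1 palindrome or the ZFP143 motif. Positions are counted back from the base before the start, which is -1. Mrpl34 (chr8:71464676-71464925, plus strand) holds the ZFP143 motif at -203 to -190 and CCGGAAG at -37 to -31. Mrpl24 (chr3:87919294-87919505, plus strand) holds the ZFP143 motif at -137 to -124. Mrps22 (chr9:98601680-98601929, minus strand) holds both motifs close to the start, at -49 to -36 and at -11 to -5, and was chosen after its sequence was seen. Mrpl9 (chr3:94443086-94443317, plus strand) holds the NRF1 palindrome at -28 to -19. Mrps18a (chr17:46110754-46110985, plus strand) holds CCGGAAG at -26 to -20.
Mrpl34: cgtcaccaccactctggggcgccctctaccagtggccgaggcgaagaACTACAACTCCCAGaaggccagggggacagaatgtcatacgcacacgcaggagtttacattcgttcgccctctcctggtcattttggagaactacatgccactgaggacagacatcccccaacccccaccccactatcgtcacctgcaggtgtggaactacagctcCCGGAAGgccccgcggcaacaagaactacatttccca
Mrpl24: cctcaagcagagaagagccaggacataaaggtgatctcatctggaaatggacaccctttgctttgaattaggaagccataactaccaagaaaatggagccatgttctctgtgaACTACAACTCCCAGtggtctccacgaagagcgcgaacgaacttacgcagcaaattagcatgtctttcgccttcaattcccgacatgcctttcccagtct
Mrps22: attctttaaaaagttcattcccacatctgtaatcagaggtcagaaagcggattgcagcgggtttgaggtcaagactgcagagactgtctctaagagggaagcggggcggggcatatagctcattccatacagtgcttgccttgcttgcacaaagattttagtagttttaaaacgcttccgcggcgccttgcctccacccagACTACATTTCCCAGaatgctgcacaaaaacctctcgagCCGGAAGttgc
Mrpl9: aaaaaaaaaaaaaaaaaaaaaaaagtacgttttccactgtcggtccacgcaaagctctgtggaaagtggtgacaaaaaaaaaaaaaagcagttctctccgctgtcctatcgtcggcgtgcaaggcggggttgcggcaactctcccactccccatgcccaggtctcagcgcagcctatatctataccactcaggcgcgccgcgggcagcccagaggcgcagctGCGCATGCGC
Mrps18a: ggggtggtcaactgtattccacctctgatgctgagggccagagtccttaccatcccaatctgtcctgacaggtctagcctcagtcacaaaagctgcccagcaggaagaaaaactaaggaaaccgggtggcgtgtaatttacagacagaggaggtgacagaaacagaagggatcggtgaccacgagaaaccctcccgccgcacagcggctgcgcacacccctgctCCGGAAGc

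Many members start close to another gene. In 30 of the 75 windows (40%) the 250 bases hold an exon of another gene on the opposite strand, against 20.1% of the windows of tested protein-coding genes. In a single case the partner is itself a member: Mrpl46 (chr7:78775236-78783531, minus strand) and Mrps11 (chr7:78783119-78792989, plus strand) are transcribed away from each other and overlap at their starts. The exon-free stretch of their shared window is 29 bases, chr7:78783090-78783118, with no motif searched in it, shown here on the strand of Mrps11.
Mrps11 and Mrpl46: ccatgaggcaacgcgggccggcgaggggc
The pair, named after values were seen, was at different levels. Mrpl46 was at 15.9, 14.3 and 12.9 FPKM in Flox and at 16.6, 14.2 and 12.7 FPKM in HKO, a difference of 0.01 (SE 0.13). Mrps11 was at 7.01, 8.62 and 5.12 FPKM in Flox and at 7.63, 5.32 and 4.69 FPKM in HKO, a difference of -0.20 (SE 0.213). The 2 genotypes overlap in both genes. Exonic overlap covers 12.2% of Mrpl46 and 8.0% of Mrps11.

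The comparison of the design asked whether loss of G3bp1 from hepatocytes altered liver RNA under the high-fat diet. No mitochondrial ribosomal protein gene passed the adjusted test in either direction (limma, smallest adjusted p = 0.648 in the large and 0.667 in the small subunit). Over all 11856 genes, 1 passed as lower in HKO (0.00843%) and 0 as higher. At an unadjusted p under 0.05, 3 large subunit genes were lower (Mrpl23, Mrpl24 and Mrpl55), no small subunit gene was lower and no member was higher. The shares over all genes at that threshold were 4.55% lower and 3.08% higher. With voom on recovered reads, 0 members passed the adjusted test, beside 2 of all genes (0.0169%), and with voom on the authors' library sizes 0 members passed beside 3 of all genes (0.0253%).

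Without a test on the single gene, means were lower in HKO in 36 of 48 large subunit genes (75%) and 23 of 29 small subunit genes (79.3%), against 51.2% of all genes tested. The median difference was -0.11 in the large and -0.13 in the small subunit on the log2(FPKM + 1) scale, and -0.01 over all genes. Differences ranged from -0.38 to 0.11 in the large and from -0.32 to 0.11 in the small subunit. All 3 HKO libraries lay below all 3 Flox libraries in 10 of 77 members (13.0%), 7 large and 3 small, against 7.21% of all genes. All 3 lay above in 0 members, against 6.06% of all genes. With 3 libraries against 3, an exact permutation test over libraries cannot go below p = 0.1.

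The lower means depended on the scaling between libraries. With FPKM rescaled to TPM, which moved the median of all genes to 0.15, the medians became 0.07 and 0.03, and 16 large and 12 small subunit genes had a lower mean. Relative to the all-gene median under each scaling, the medians were -0.10 and -0.12 as reported and -0.08 and -0.12 with TPM. Relative to that median, 35 large and 22 small subunit genes lay lower as reported, and 34 and 21 with TPM.

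**Figure D2:**
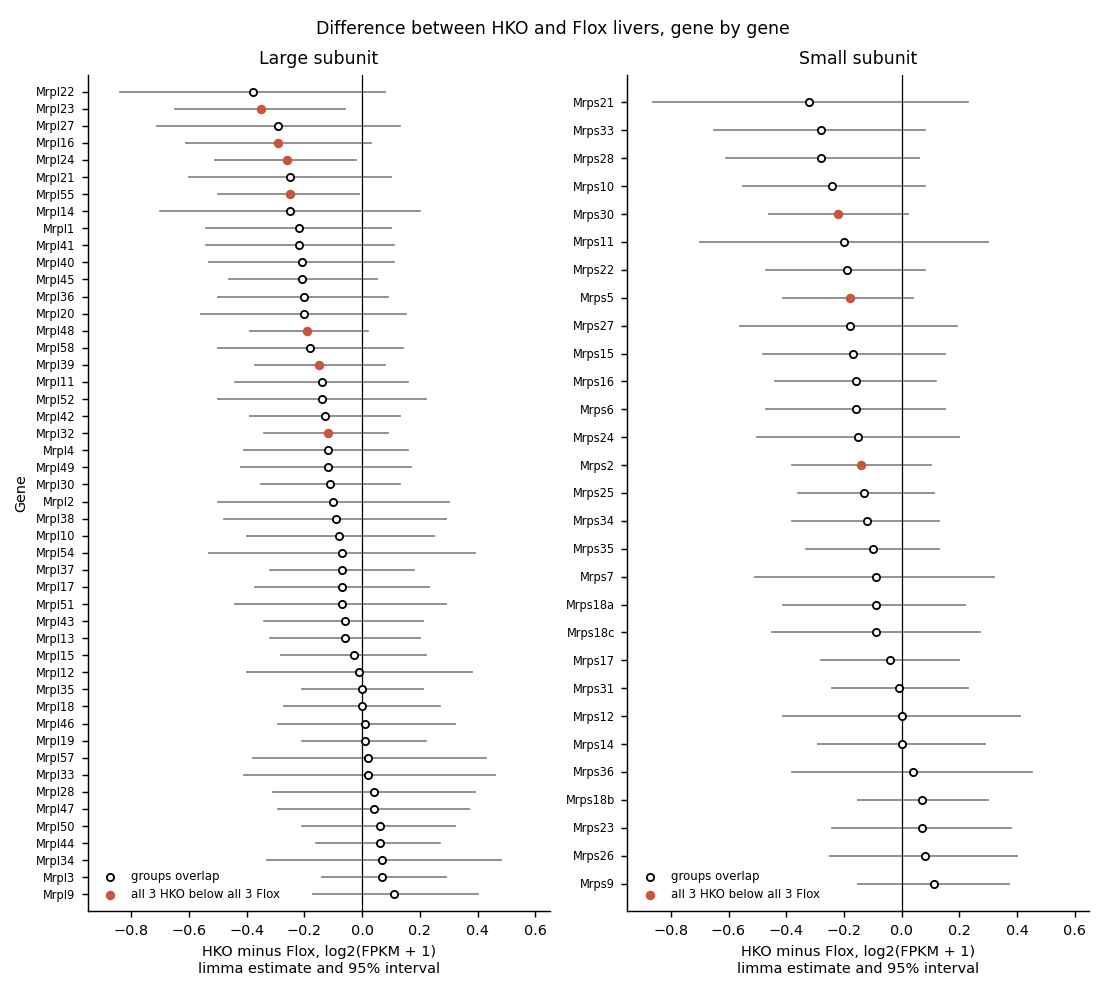
Difference between HKO and Flox on the log2(FPKM + 1) scale for each tested gene (point, limma estimate; line, 95% interval), large subunit at left and small subunit at right. Filled points are the 10 genes in which all 3 HKO libraries lay below all 3 Flox libraries, and most intervals cross 0.

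Among the large subunit genes, Mrpl23 had the smallest p. It encodes the counterpart of bacterial L23, a protein at the exit of the peptide tunnel, and lies at chr7:142532686-142540747 (plus strand). It was at 5.92, 6.66 and 5.32 FPKM in Flox and at 5.15, 3.88 and 4.36 FPKM in HKO. All HKO values lay below all Flox values, though HKO 1 and Flox 3 were close. The means were 5.97 ± 0.67 and 4.46 ± 0.642 FPKM (SD, n = 3 each), a difference of -0.35 (SE 0.124, unadjusted p = 0.0245, limma adjusted p = 0.648).

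Mrpl24, whose bacterial counterpart L24 also sits by the peptide tunnel, is the gene whose ZFP143 motif is printed above. It lies at chr3:87919506-87923672 (plus strand) and was at 18.6, 19.0 and 16.8 FPKM in Flox and at 14.7, 16.1 and 13.9 FPKM in HKO. Every HKO library was lower than every Flox library, and the difference was -0.26 (SE 0.103, unadjusted p = 0.036, limma adjusted p = 0.648). Of its exonic bases, 26.3% overlap Rrnad1 on the other strand. Mrpl55, a protein found in the mitochondrial but not the bacterial ribosome, lies at chr11:59202486-59206134 (plus strand). It was at 22.0, 22.5 and 18.7 FPKM in Flox and at 17.6, 17.4 and 17.5 FPKM in HKO. The HKO libraries lay close together below the lowest Flox library, with means of 21.1 ± 2.07 and 17.5 ± 0.0911 FPKM (SD, n = 3 each). The difference was -0.25 (SE 0.105, unadjusted p = 0.0456, limma adjusted p = 0.648).

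The other 7 members without overlap between genotypes did not reach an unadjusted p under 0.05, and all but Mrps30 were named after their values were seen. Mrpl16, whose bacterial counterpart lies near the site of peptide bond formation, was at 30.3, 37.5 and 29.4 FPKM in Flox and at 27.6, 23.2 and 28.1 FPKM in HKO, a difference of -0.29 (SE 0.135). Mrpl48 was at 3.54, 3.48 and 3.26 FPKM in Flox and at 2.96, 2.98 and 2.74 FPKM in HKO, a difference of -0.19 (SE 0.0873). Its values were tight within each genotype. Mrpl39 was at 15.2, 16.3 and 14.4 FPKM and at 14.3, 13.6 and 13.2 FPKM, with Flox 3 and HKO 1 nearly level. Mrpl32, a protein that a protease of the inner membrane trims before assembly, was at 4.51, 4.18 and 4.26 FPKM and at 3.62, 3.88 and 4.15 FPKM. The differences of the last 2 genes were -0.15 (SE 0.0951) and -0.12 (SE 0.0906), and both were 0.02 with TPM.

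In the small subunit list, Mrps30 was among the lowest genes in level and had the smallest p. Its name places it in the small subunit, while structures of the mammalian mitoribosome place its protein in the large subunit. It lies at chr13:118378381-118387252 (minus strand) and was at 3.19, 2.88 and 2.52 FPKM in Flox and at 2.37, 2.37 and 2.17 FPKM in HKO. All HKO values were lower, and the difference was -0.22 (SE 0.102, unadjusted p = 0.0636, limma adjusted p = 0.667). Mrps5, the counterpart of a bacterial protein that affects decoding accuracy, was at 6.38, 7.29 and 6.15 FPKM and at 5.56, 5.80 and 5.73 FPKM, a difference of -0.18 (SE 0.0957). Mrps2 was at 13.9, 14.4 and 13.3 FPKM and at 13.2, 11.2 and 13.1 FPKM, a difference of -0.14 (SE 0.101) that was 0.03 with TPM. In Mrps2 the highest HKO and the lowest Flox library were nearly level.

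The largest estimate of all members was that of Mrpl22, named after its value was seen. It was at 25.2, 27.0 and 19.5 FPKM in Flox and at 23.6, 16.1 and 15.2 FPKM in HKO. HKO 1 lay above Flox 3, and the difference was -0.38 (SE 0.195, 95% interval -0.84 to 0.08). Mrpl22 was the member with a near-identical copy among the annotated transcripts, the only place searched. Its longest transcript matched Gm6997 at 97.1% identity, so its counts are uncertain where reads could be split. Gm6997 held 1 to 3 reads per library, and Mrpl22 held 264 to 411.

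Members with a higher mean in HKO differed by little. Mrpl9 was at 18.3, 17.8 and 14.5 FPKM in Flox and at 19.4, 18.6 and 16.8 FPKM in HKO, a difference of 0.11 (SE 0.121, limma adjusted p = 0.792). Mrpl3, whose bacterial counterpart reaches the peptidyl transferase centre, was at 3.47, 3.25 and 3.78 FPKM and at 3.75, 3.89 and 3.55 FPKM, a difference of 0.07 (SE 0.0927). Mrpl44 was at 14.4, 14.2 and 14.2 FPKM and at 14.6, 16 and 14.1 FPKM, a difference of 0.06 (SE 0.0926). The genotypes overlap in all 3 genes. In the small subunit, Mrps9 was at 2.75, 3.45 and 2.94 FPKM and at 3.75, 3.06 and 3.28 FPKM, a difference of 0.11 (SE 0.11, limma adjusted p = 0.778). Mrps26 was at 5.29, 5.13 and 4.6 FPKM and at 6.70, 4.73 and 4.75 FPKM, a difference of 0.08 (SE 0.139). Only its HKO 1 library lay above the Flox values, and the difference was -0.06 without HKO 1.

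The 3 paralogs of bacterial S18 offer a comparison within a family. Mrps18b and Mrps18c are built into the small subunit, each at a place of its own, while structures place the protein of Mrps18a in the large subunit. Mrps18a was at 7.65, 8.52 and 6.11 FPKM in Flox and at 7.26, 6.15 and 7.16 FPKM in HKO, a difference of -0.09 (SE 0.133). Mrps18b was at 6.42, 6.96 and 7.46 FPKM and at 7.69, 7.26 and 7.13 FPKM, a difference of 0.07 (SE 0.0943), and 30.5% of its exonic bases overlap Gm16279. Mrps18c was at 16.6, 14.0 and 11.3 FPKM and at 14.5, 12.7 and 11.7 FPKM, a difference of -0.09 (SE 0.153). Mrps18c was the highest of the family in every library. Its gene model is the shortest (1076 bases, against 3690 for Mrps18a and 2089 for Mrps18b), and 23.2% of its exonic bases overlap Gm43511 on the same strand. The genotypes overlap in all 3 genes.

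Mrpl12 and Mrps36 have roles that set them apart. Mrpl12 forms the stalk that recruits translation factors and has also been described as a partner of the mitochondrial RNA polymerase. It was at 41.5, 38.0 and 32.0 FPKM in Flox and at 45.0, 35.0 and 31.3 FPKM in HKO, a difference of -0.01 (95% interval -0.40 to 0.38). Mrps36 is now described as a subunit of the oxoglutarate dehydrogenase complex of the citric acid cycle. It was at 7.41, 6.03 and 4.30 FPKM in Flox and at 5.53, 5.64 and 6.77 FPKM in HKO, a difference of 0.04 (95% interval -0.38 to 0.45). The genotypes overlap in both genes.

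The members varied together from library to library on the deposited scaling. Each gene's log2(FPKM + 1) values were centred on their mean over the 6 libraries. The median of the large subunit genes was then 0.12, 0.18 and -0.13 in Flox 1, 2 and 3 and 0.04, -0.09 and -0.13 in HKO 1, 2 and 3. The median of the small subunit genes was 0.10, 0.13 and -0.13 in Flox and 0.03, -0.11 and -0.11 in HKO. Flox 3 thus lay with HKO 2 and HKO 3, and HKO 1 lay between them and Flox 1 and 2. The medians of all genes tested lay between -0.01 and 0.01 in every library. Short genes in general had a similar order to the members. In the 1957 genes shorter than 1500 bases the medians were 0.12, 0.12 and -0.09 in Flox and 0.07, -0.10 and -0.10 in HKO. In the 21 members of that length they were 0.19, 0.22 and -0.16 in Flox and 0.12, -0.15 and -0.17 in HKO. In the 7262 genes of at least 3000 bases they lay between -0.03 and 0.03.

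Gene by gene the order was similar. Flox 3 was the lowest Flox library in 69 of 77 members (89.6%, against 41.8% of all genes tested). HKO 1 was the highest HKO library in 51 members (66.2%, against 38.3%). HKO 1 was above Flox 3 in 62 members (80.5%, against 49.2%), and Flox 1 and Flox 2 were both above every HKO library in 42 members (54.5%, against 19.2%). Flox 2 was the highest of the 6 libraries in 41 members (53.2%, against 23.7%) and Flox 1 in 20 (26%, against 13.4%). Part of this order was shared by other lists described below. Flox 3 was the lowest Flox library in 89.7% of nuclear respiratory chain and ATP synthase genes and in 85.5% of cytosolic ribosomal protein genes. In the same lists HKO 1 was the highest HKO library in 69.2% and 88.2%. It was above Flox 3 in 69.2% and 100%. All these patterns were counted after the values were seen.

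**Figure D3:**
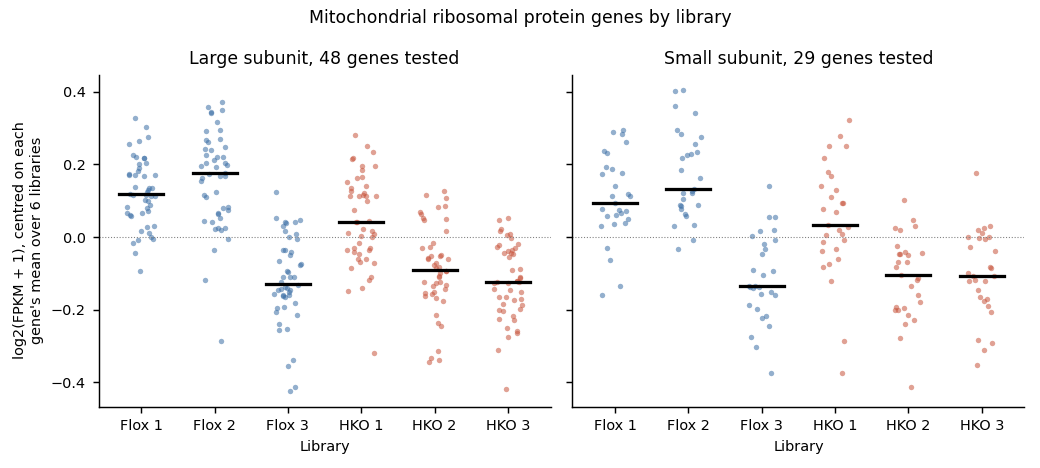
Log2(FPKM + 1) of each tested gene, centred on its mean over 6 libraries, in 3 Flox and 3 HKO libraries (points, genes; bars, medians). Flox 3 sits at -0.13 in both subunits, beside HKO 2 and HKO 3 and below HKO 1.

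Single libraries carried the size of the group difference. Without Flox 3 the median difference was -0.21 in the large and -0.18 in the small subunit, and 10 large and 4 small subunit genes reached an unadjusted p under 0.05, beside 15.3% of all genes. Without Flox 2 the medians were -0.05 in both subunits, and without HKO 3 they were -0.07 and -0.08. Without HKO 2 they were -0.09 and -0.08. The smallest adjusted p of a member was 0.257 in limma without Flox 3, so that 0 members passed in any of these fits. Flox 3 also held more Kupffer marker RNA (271 FPKM) than Flox 1 and Flox 2 (148 and 169 FPKM), and HKO 1 held the most (362 FPKM). The part of the macrophages in the members' difference was not tested.

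The 2 subunits kept a nearly fixed ratio. Summed over members, the large subunit was at 986, 1020 and 795 FPKM in Flox and at 941, 825 and 802 FPKM in HKO, and the small subunit was at 412, 438 and 332 FPKM and at 398, 333 and 338 FPKM. The means were 934 ± 121 and 856 ± 74.4 FPKM for the large and 394 ± 55.2 and 357 ± 36.1 FPKM for the small subunit (SD, n = 3 each), so each difference was smaller than the Flox SD. The ratio of large to small was 2.39, 2.33 and 2.40 in Flox and 2.36, 2.47 and 2.37 in HKO. Its 6 values spanned a narrow range in which the genotypes overlap.

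Most members followed the other members, taken over both subunits together. Over the 6 libraries, each gene was correlated with the median of all other tested members of both subunits. This correlation had a median of 0.82 in the large and 0.76 in the small subunit genes. It was over 0.5 in 39 large and 24 small subunit genes, together 81.8% of the members. The correlation with the members' median was over 0.5 in 29.4% of all genes tested. The points share library and scaling, and the values are a description. A member's correlation with the other members was below 0 in 5 genes: Mrpl44, Mrpl3 and Mrpl47 of the large and Mrps18b and Mrps22 of the small subunit. Mrps22, a protein with no bacterial counterpart whose promoter is printed above, was at 5.79, 5.92 and 6.17 FPKM in Flox and at 4.34, 5.98 and 5.04 FPKM in HKO. It was lowest in HKO 1 and highest in Flox 3, the reverse of the usual order, and its difference was -0.19 (SE 0.118).

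Gene length moved with these differences in all genes. Among members shorter than 1500 bases the median difference was -0.14 (21 genes), against -0.09 in 1957 genes of that length. It was -0.14 in 27 members of 1500 to 3000 bases, against -0.06 in 2637 genes. In 29 members of at least 3000 bases it was -0.07, against 0.02 in 7262 genes. In each class the median of the members lay lower than that of all genes. The part of length in the members' difference was not tested beyond these classes.

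The differences are given by promoter letters as a description, with no test. Tested members with CCGGAAG had a median difference of -0.09 (25 genes) and those with a window but no match -0.13 (43 genes). With AAGATGGC it was -0.12 (12 genes), with the NRF1 palindrome -0.12 (3 genes) and with the ZFP143 motif -0.16 (4 genes).

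Other genes that build, help or depend on the mitochondrial ribosome were counted from chosen lists, and none of them passed the adjusted test in limma. Of the 5 mitochondrial ribosomal proteins with other symbols, such as Dap3, 4 had a lower mean (median -0.13). Dap3, a GTP-binding protein of the small subunit, was at 6.03, 6.77 and 5.42 FPKM in Flox and at 4.78, 5.72 and 4.98 FPKM in HKO. Of 27 tested assembly and rRNA modification genes, 15 had a lower mean (median -0.03), and 2 were lower at an unadjusted p under 0.05, beside 4.55% of all genes. These were Mterf4, which works with an rRNA methyltransferase (2.87 ± 0.326 FPKM in Flox and 2.21 ± 0.155 FPKM in HKO, SD, n = 3 each), and Gtpbp10, a GTPase of large subunit assembly (3.08 ± 0.0422 and 2.42 ± 0.357 FPKM). Neither passed after adjustment.

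Of 15 tested mitochondrial translation factors, 10 had a lower mean (median -0.03). Taco1, a translational activator of the mitochondrial message for a cytochrome c oxidase subunit, was at 11.8, 12.7 and 12.9 FPKM in Flox and at 14.3, 17.1 and 16.8 FPKM in HKO. Every HKO library lay above every Flox library, opposite to the trend of the ribosomal proteins, and the difference was 0.34 (limma adjusted p = 0.648). C1qbp, a matrix protein needed for mitochondrial translation, was at 29.2, 36.1 and 27.9 FPKM in Flox and at 24.4, 21.5 and 24.1 FPKM in HKO, with all HKO libraries below all Flox libraries and a difference of -0.39 (limma adjusted p = 0.648). Of 19 tested genes for charging mitochondrial tRNA, 13 had a lower mean (median -0.03). Lars2, the leucyl-tRNA synthetase, was at 61.3, 13.5 and 64.0 FPKM in Flox and at 12.7, 14.7 and 18 FPKM in HKO, so that Flox 1 and Flox 3 alone were high. Gm23935, a gene model of 57 bases on chromosome 16 named after its values were seen, was high in the same 2 libraries, with 31624, 7170 and 26972 reads in Flox and 6775, 6674 and 9786 reads in HKO. Its part in the Lars2 values was not tested.

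Lists upstream and downstream of the organelle's ribosome were read in the same way. Of 10 tested genes for transcription of mitochondrial DNA, 6 had a lower mean (median -0.04), and of 10 regulators of mitochondrial biogenesis, 4 (median 0.10). The 2 mitochondrial rRNAs, the RNA of this ribosome, both had a higher mean in HKO. For mt-Rnr2, of the large subunit, the values were 222, 251 and 352 FPKM in Flox and 312, 544 and 328 FPKM in HKO (difference 0.50, limma adjusted p = 0.685). For mt-Rnr1, of the small subunit, they were 335, 259 and 425 FPKM and 320, 455 and 349 FPKM (difference 0.15). The genotypes overlap in both, and the labels do not say how ribosomal RNA was removed or messenger RNA selected. Of the 13 mitochondrially encoded messages, which this ribosome translates, 10 had a lower mean (median -0.23).

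Nuclear genes for subunits of the respiratory chain and ATP synthase, whose products are assembled with the proteins made by this ribosome, had larger differences. A lower mean was found in 77 of 78 tested genes (median -0.24), against 51.2% of all genes, and 12 were lower at an unadjusted p under 0.05, against 4.55% of all genes. Their centred medians were 0.22, 0.26 and -0.09 in Flox and 0.03, -0.21 and -0.17 in HKO, with Flox 1 and Flox 2 highest, as in the mitochondrial ribosomal proteins, but with Flox 3 above HKO 2 and HKO 3. Flox 1 and Flox 2 were both above every HKO library in 69.2% of them, against 54.5% of the members. The median of the cytosolic ribosomal proteins was also lowest in Flox 3 among Flox and highest in HKO 1 among HKO, but the groups stood otherwise. Of 76 such genes, 21 had a lower mean (27.6%, against 51.2% of all genes), with a median difference of 0.08. At an unadjusted p under 0.05, 2 were higher, and in 4 (5.26%) all HKO libraries lay above all Flox libraries, shares that are below those over all genes (3.08% and 6.06%). Their centred medians were 0.05, 0.09 and -0.22 in Flox and 0.30, 0.02 and -0.18 in HKO. HKO 1 was their highest library in 81.6%, against 16.9% of the members, and Flox 1 and 2 were both above every HKO library in 1.32%. The difference between lists was not tested. With TPM the median difference was -0.06 for the respiratory chain genes (51 of 78 lower), 0.26 for the cytosolic ribosomal proteins, -0.05 for the mitochondrial messages and 0.51 for the mitochondrial rRNAs. On that scaling it was 0.04 for the proteins with other symbols, 0.09 for assembly, 0.12 for translation factors, 0.13 for tRNA charging, 0.12 for mitochondrial transcription and 0.28 for biogenesis regulators.

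**Figure D4:**
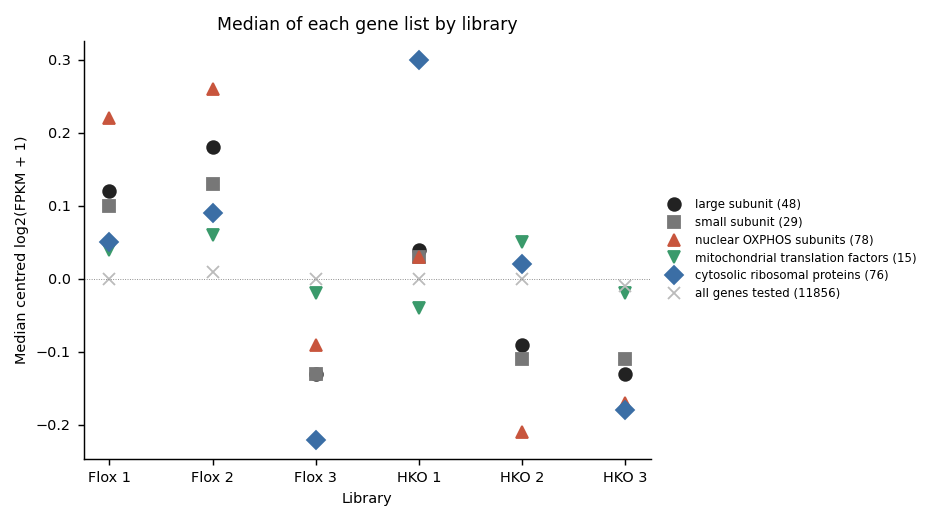
Median over genes of centred log2(FPKM + 1) in each of 3 Flox and 3 HKO libraries, for both subunits and 4 other sets, with the number of tested genes in brackets. The subunits lie together in every library, the respiratory chain genes are also highest in Flox 1 and Flox 2 but have Flox 3 above HKO 2 and HKO 3, and the cytosolic ribosomal proteins peak at 0.30 in HKO 1.

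**Figure D5:**
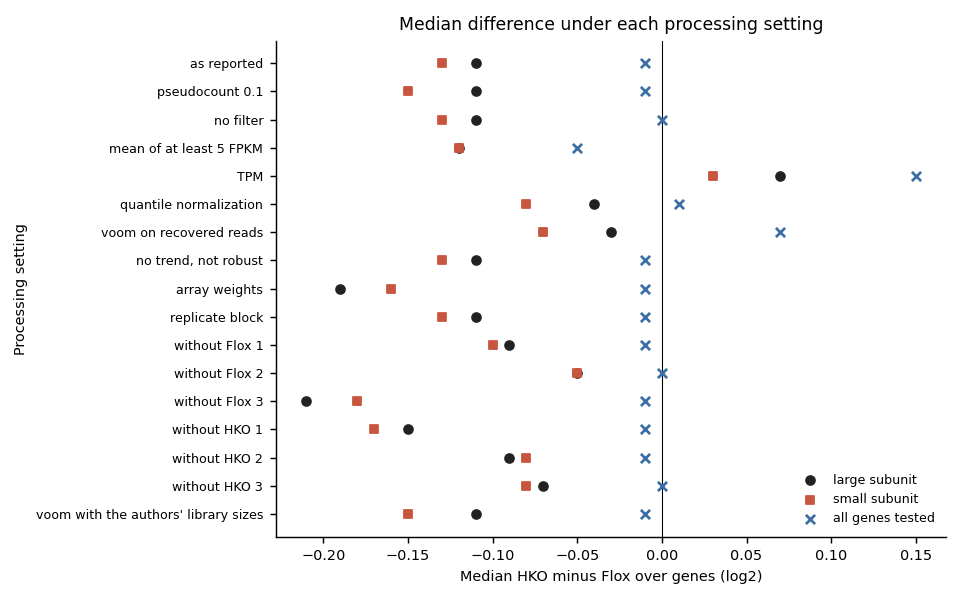
Median difference between HKO and Flox (log2 scale) over large subunit genes, small subunit genes and all genes tested, under each processing setting. With TPM all 3 medians lie above 0, and in every setting both subunits lie below all genes.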

How the data were processed

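RNA of 6 mouse liver libraries was measured. The authors deposited 1 table of FPKM values per gene and library, with gene lengths. The submitters' processing notes name the builds GRCm38 and mm10, while the sources used here do not name an aligner, counter or annotation release. The libraries were made from 1.3 µg of total RNA with a NEBNext Ultra kit, per the labels' protocols, a kit that does not mark strand. FPKM times length gave whole reads within 0.02 reads for 100% of values, and the library sizes behind the FPKM carried a median-ratio scaling. A level of 1 FPKM equals 14.9 to 18.5 reads per kilobase.

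The 11856 genes at or above 0.5 FPKM in 3 or more libraries were tested with limma 3.58.1 in R 4.3.3 (trend, robust) on log2(FPKM + 1), two-sided, with Benjamini-Hochberg adjustment over all genes and a threshold of 0.05. Differences on that scale understate the change of low genes. The model was tested on simulated data. GENCODE M21, an annotation of GRCm38 that holds 99.8% of the gene identifiers, gave overlaps, and copies were sought at 97% identity over 80% of a transcript. All gene lists, marker lists and members were chosen with earlier results of these data known. Named members were, per subunit, those with an unadjusted p under 0.05, up to 3 of the other direction, the 3 highest and 3 lowest in level, the Mrps18 paralogs, Mrpl12, Mrps36 and those failing the filter. Alternatives were another pseudocount, 2 filters, TPM, quantile normalization, voom on recovered reads, other variance models, a replicate block and leaving out each library. Voom with the authors' library sizes was added after seeing the data.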

Additional observations from a re-analysis of the deposited data

How the results depend on the processing

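No member of either subunit passed the adjusted test under any setting run. The number of all genes called lower was 1 as reported, 0 without a filter, 2 with a mean of at least 5 FPKM, 2 with voom on recovered reads, 3 with array weights and 3 with voom on the authors' library sizes. It ranged from 0 to 12 when each library was left out in turn (12 without HKO 1), and calls of higher genes ranged from 0 to 1. With array weights, 16 large and 8 small subunit genes reached an unadjusted p under 0.05, beside 24.1% of all genes, and G3bp1 passed at an adjusted p of 0.0275 in limma; with voom on the authors' library sizes it passed at 0.037. TPM turned the large subunit median to 0.07 (16 lower) and the small subunit median to 0.03 (12 lower); quantile normalization gave -0.04 and -0.08, and voom on recovered reads -0.03 and -0.07. Leaving out single libraries gave medians of -0.21 to -0.05 and -0.18 to -0.05. The cause of these shifts was not tested.

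Same-numbered libraries hardly deviated together (r = 0.02, 0.01 and 0.07). Libraries with different numbers had r from -0.10 to 0.07, so these values cannot settle whether the numbers mark pairs. With the replicate number as a block, the medians stayed at -0.11 and -0.13, with 0 members and 0 genes of the table called.

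Small differences changed sign. With array weights they were -0.10 for Mrpl34, -0.19 for Mrpl33, -0.04 for Mrpl47, -0.04 for Mrps26, -0.14 for Mrps36 and -0.13 for Mrpl46, and Mrpl19 was at -0.01 with quantile normalization. With TPM they were 0.03 for Mrps24, 0.07 for Mrps18a, 0.08 for Mrps18c, 0.17 for Mrpl12, 0.02 for Mrpl39, 0.02 for Mrpl32 and 0.03 for Mrps2. Mrpl12 was at 0.09 with quantile normalization and 0.07 with voom on recovered reads. Leaving out single libraries gave -0.11 to 0.20 for Mrpl34, -0.02 to 0.04 for Mrpl19, -0.19 to 0.19 for Mrpl33, -0.09 to 0.11 for Mrpl47 and -0.06 to 0.15 for Mrps26. It gave -0.22 to 0.03 for Mrps18c, -0.15 to 0.10 for Mrpl12, -0.14 to 0.19 for Mrps36 and -0.08 to 0.10 for Mrpl46. Reads were fewest in Mrps36 (92 in Flox 3).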

Other observations

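The 5 pseudogenes named like members held few reads, between 0 and 33 per library. Mrps36-ps3 was listed at 0 in all 6 libraries, and Mrpl48-ps had the highest mean, at 1.02, 0.635 and 1.31 FPKM in Flox and at 1.06, 1.13 and 2.80 FPKM in HKO.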
